A study of Mus musculus with 8 samples.

Results

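Transcripts of 9 receptor genes that guide naive T cells into lymph nodes and out again were followed in mouse naive CD8+ T cells exposed to an agonist of the liver X receptors (LXR). The genes were listed by symbol with no threshold on a measured value, and all 9 of them are rows of a count table of 41730 genes, of which 10037 could be tested. They encode the chemokine receptors CCR7, CCR9 and CXCR4, the sphingosine 1-phosphate (S1P) receptors S1PR1 and S1PR4, and the integrin chains αL, β2, α4 and β7. One group of 4 libraries came from cells cultured for 24 h with 2 µM RGX-104, a synthetic LXR agonist, and the other 4 from cells cultured for 24 h with the solvent DMSO. The cells had been purified with a magnetic kit for naive CD8+ T cells, and strain, sex and age of the mice are not given in the labels used here. Libraries are named by group and number, RGX-104 replicates 5 to 8 and DMSO replicates 1 to 4. Whether the libraries stand for separate mice or cultures is not in the labels, so p-values reflect a spread between libraries that could be purely technical.

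Naive T cells circulate between blood and lymph nodes. CCR7 answers to the chemokines CCL19 and CCL21 on the vessels and stroma of the node and triggers the integrin LFA-1, the pair of αL and β2, to hold the cell to ICAM-1. S1PR1 later draws the cell out towards the S1P-rich lymph. CCR9, which binds CCL25, and the integrin α4β7, which binds MAdCAM-1, direct T cells to the gut, and CXCR4 binds CXCL12. LXR are nuclear receptors for oxysterols, and their best known targets move cholesterol out of cells and make fatty acids.

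None of the 9 receptor genes passed the test for a difference between RGX-104 and DMSO (edgeR quasi-likelihood test, adjusted p = 1.00 for each), where 0.11% of all genes tested were called. Each gene had been counted in every library, and all 9 passed the filter on low counts. DESeq2 and limma-voom called 0 members as well. At an unadjusted p under 0.05 there were 2 members, S1pr4 with higher and S1pr1 with lower counts in RGX-104. Of all genes tested 3.81% were under this p, 1.98% higher and 1.82% lower, and of the 3544 tested genes with a mean of 50 CPM or more 6.97% were. CPM are a gene's counts scaled to the same total in every library. The same 2 members had no overlap between the groups, which held for 3.56% of all genes tested (2.2% higher and 1.35% lower) and for 4.06% of those with 50 CPM or more. Of the 9 log2 fold changes 6 were above 0 and 3 below, with a median of 0.11, while the median of all genes tested was 0.0090. In the bulk RNA of these cultures a change in the share of cells that carry a transcript and a change in the amount per cell cannot be told apart.

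The agonist's own targets differed clearly in the same libraries. Abca1, which encodes a cholesterol exporter, averaged 346 ± 34.8 CPM in RGX-104 and 6.61 ± 5.59 CPM in DMSO (SD, n = 4 each), and it was called higher in RGX-104, as were the other LXR targets looked at as a check, Abcg1, Srebf1, Mylip, Scd2 and Fasn. Total counts were 16196217 to 28287445 in RGX-104 and 16308726 to 24353797 in DMSO, and 10442 to 10990 and 9772 to 10908 genes had a count (exact two-sided permutation p = 0.114 for the number of genes). DMSO replicates 1, 2 and 3 had the fewest genes with a count, and their part in the results was not tested beyond the values given without them. Of 14 genes listed for CD8 T cells 13 had counts and 1, Cd28, had none, and they summed to 4959 to 5486 CPM in RGX-104 and 4882 to 5249 CPM in DMSO. This sum includes genes not limited to CD8 T cells, such as Cd3e and Ptprc, the latter at 1054 and 1158 CPM on average. Cd8a averaged 739 CPM in RGX-104 and 668 CPM in DMSO, and Cd8b1 716 and 719 CPM. Markers of macrophages and monocytes summed to at most 37.5 CPM in RGX-104 and 46.8 CPM in DMSO, and those of B cells to 128 to 219 CPM and 51.4 to 234 CPM. Markers of CD4 and regulatory T cells summed to 13.2 to 57.8 CPM in RGX-104 and 19.8 to 56.9 CPM in DMSO. Ikzf2 made up most of this on average, at 31.1 and 29.1 CPM, with Cd4 itself at 2.7 and 2.0 CPM. Markers of dendritic cells summed to 36.5 to 76.7 CPM in RGX-104 and 61.9 to 103 CPM in DMSO. Cst3 made up most of this on average, at 62.7 and 79.8 CPM, and each other dendritic marker averaged at most 1.27 CPM. Natural killer, neutrophil, erythroid and platelet, and stromal and endothelial markers reached at most 2.30, 11.5, 29.1 and 5.99 CPM in an RGX-104 library and 0, 34.7, 55.4 and 12.8 CPM in a DMSO library.

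**Figure D1:**
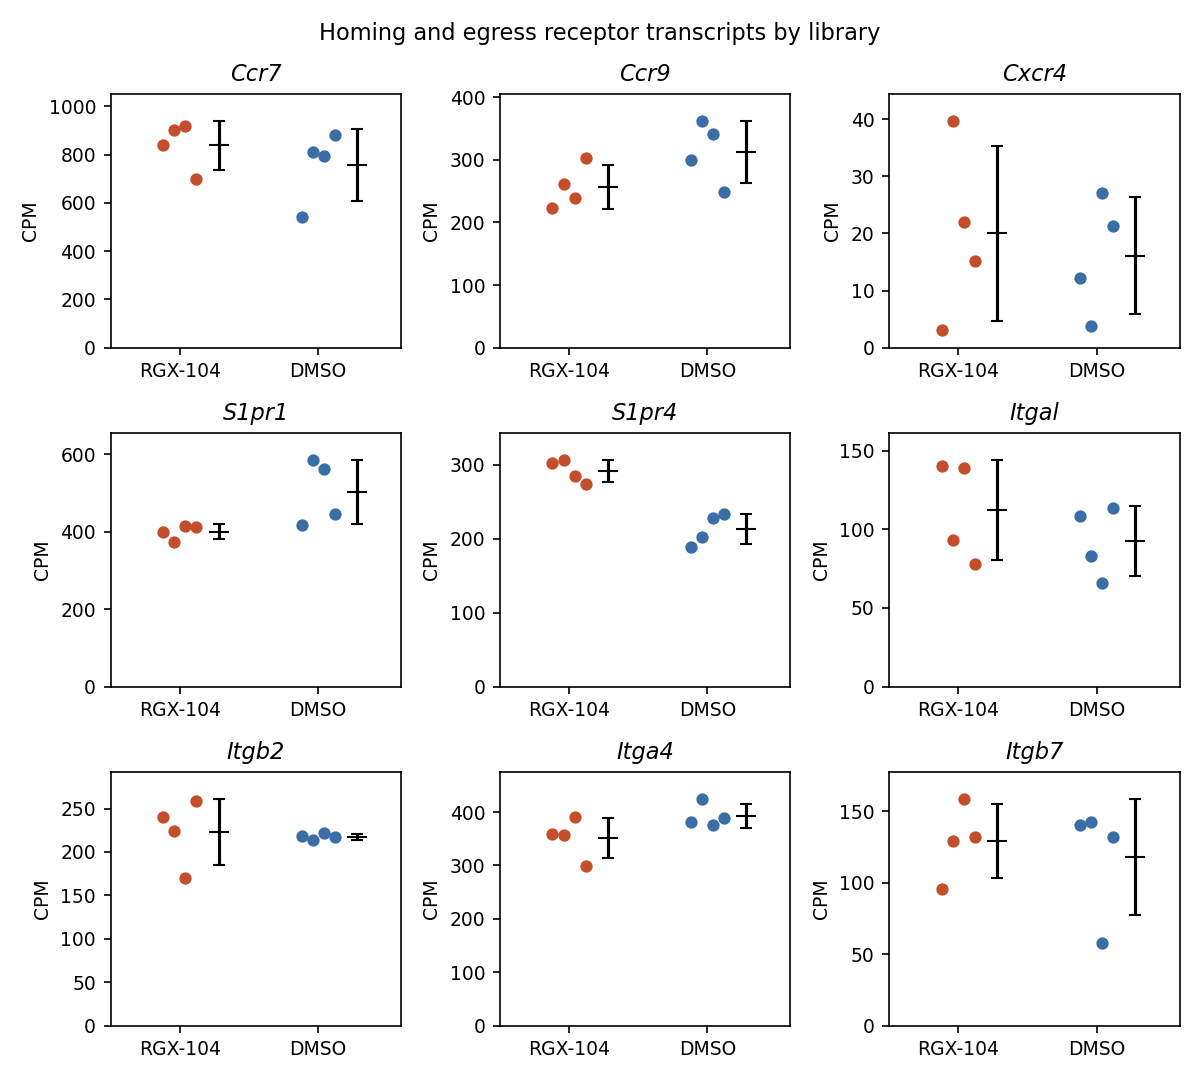
Transcript level of the 9 receptor genes in CPM (vertical axes, each from 0), with RGX-104 libraries on the left and DMSO libraries on the right of each panel. Each point is 1 library, and the bar beside the points is the mean ± SD of 4 libraries; S1pr4 and S1pr1 are the panels whose groups do not overlap, with S1pr4 at 274 to 306 CPM in RGX-104 and 189 to 233 CPM in DMSO.

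The chemokine receptor Ccr7 had the highest level of the 9 genes, and it ranked 125 by mean CPM among all genes tested. It stood at 838, 903, 919 and 697 CPM in RGX-104 replicates 5 to 8 and at 540.2, 811, 794 and 881 CPM in DMSO replicates 1 to 4. The lowest library was DMSO replicate 1, and the other 3 DMSO libraries lay within the range of RGX-104. RGX-104 over DMSO gave a log2 fold change of 0.13 ± 0.14 (SE), with a 95% interval from 0.894-fold to 1.34-fold, so a change of 2-fold in either direction lies outside it. Without DMSO replicate 1 the log2 fold change was -0.00134, and against DMSO replicate 4 alone it was -0.11. Ccr7 lies on the minus strand of chromosome 11 at 99144196 to 99155077 (GRCm38), with 3 exons in its principal transcript.

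Ccr9, the gut and thymus homing receptor, was at 223, 262, 239 and 302 CPM in RGX-104 and at 299.9, 362, 340.5 and 249 CPM in DMSO. DMSO replicates 1 and 4 lay within the RGX-104 range and RGX-104 replicates 6 and 8 within the DMSO range, so the groups overlapped. Its log2 fold change of -0.30 ± 0.15 did not pass (unadjusted p = 0.0684), and the interval ran from 0.649-fold to 1.02-fold. Against DMSO replicate 4 alone the value was 0.0101. The annotated gene spans chromosome 9, 123678439 to 123784330, on the plus strand, and overlaps Lztfl1 on the opposite strand, which averaged 17.8 CPM in RGX-104 and 19.2 CPM in DMSO. Lztfl1 does not reach the last exon of Ccr9, where 3' end reads are expected, but AC165425.1, also annotated on the opposite strand, covers that exon. AC165425.1 is not among the genes counted, and with the strand setting unknown its reads cannot be told apart from those of Ccr9.

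Cxcr4, the receptor for CXCL12, was the member with the lowest level and the widest spread. It had 3.11, 39.7, 22.0 and 15.1 CPM in RGX-104 and 12.2, 3.77, 27.1 and 21.2 CPM in DMSO. Both groups held 1 library under 4 CPM, and the DMSO range lay inside that of RGX-104. A log2 fold change of 0.30 ± 0.77 had an interval from 0.403-fold to 3.74-fold. A 2-fold change in either direction lies inside it and was not detectable in these libraries. The zeros among low genes fit 182352 to 344257 independent molecules per library rather than the number of reads counted, and on that scale Cxcr4 came to between 0.687 and 11.6 apparent molecules in a library. Cxcr4 lies at chromosome 1, 128588199 to 128592293, on the minus strand.

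The other chemokine and migration receptors gave little more. Of 33 listed receptors, Ccr7, Ccr9 and Cxcr4 included, 22 had a count and 11 could be tested. Among these, 0 were called and 0 had an edgeR unadjusted p under 0.05, and DESeq2 and limma-voom also called 0. Of the 11, 8 had a log2 fold change above 0, with a median of 0.30, which is the value of Cxcr4. Cxcr6, a receptor of tissue-resident and effector T cells, averaged 51.5 ± 14.03 CPM in RGX-104 and 76.2 ± 15.3 CPM in DMSO (unadjusted p = 0.0569). Gpr183, which binds oxysterols and positions lymphocytes in the node, averaged 24.3 ± 14.7 CPM in RGX-104 and 15.4 ± 5.54 CPM in DMSO, with RGX-104 replicate 6 highest at 43.3 CPM and DMSO replicate 3 lowest at 7.80 CPM. P2ry10, a lysophospholipid receptor, averaged 189.6 ± 38.1 and 144 ± 60.5 CPM in these groups, and Gpr174, another one, 30.6 ± 22.0 and 23.8 ± 12.7 CPM. The inflammatory receptor Cxcr3 was counted in 1 RGX-104 library, at 1.59 CPM, and in 2 DMSO libraries, at 16.7 and 5.03 CPM. Cd28 and Cd2, which T cells are known to carry, had no count in any library, so a 0 in this table does not show that a gene was off.

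The S1P receptors were the members in which RGX-104 and DMSO libraries stood apart, in opposite directions. S1pr4, which encodes an S1P receptor found mainly on blood cells, was at 302, 306, 285 and 274 CPM in RGX-104 and at 189, 203, 227 and 233 CPM in DMSO. Every RGX-104 library was above every DMSO library, by at least the gap between 274 and 233 CPM. This gave a log2 fold change of 0.44 ± 0.14, with an interval from 1.10-fold to 1.67-fold (edgeR unadjusted p = 0.00702, adjusted p = 1.00). In rank order of p it stood at 57 among all genes tested. The adjusted p lay between 0.0947, with DESeq2, and 1.00 over 17 alternatives, none of which called the gene. The value was 0.36 in a fit that adjusts for the genes detected in each library (unadjusted p = 0.0616). Against DMSO replicate 4 alone it was 0.29 (unadjusted p = 0.194).

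S1pr1, the receptor that carries naive T cells out of the lymph node, was at 400.2, 374, 415 and 412 CPM in RGX-104 and at 416, 586, 561 and 446 CPM in DMSO. All RGX-104 libraries were below all DMSO libraries, but only just, with 415 CPM as the highest RGX-104 value and 416 CPM as the lowest DMSO value. DMSO replicates 2 and 3 were well above the rest. RGX-104 over DMSO was -0.34 ± 0.13 on the log2 scale, with an interval from 0.650-fold to 0.956-fold (edgeR unadjusted p = 0.0182, adjusted p = 1.00). Without DMSO replicate 2 it was -0.27 (unadjusted p = 0.0633) and without DMSO replicate 3 -0.30 (unadjusted p = 0.0519). Adjusted for detected genes it was -0.25 (unadjusted p = 0.153), and against DMSO replicate 4 alone it was -0.19.

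The balance of both S1P receptors, looked at once their values had been seen and therefore given without a test, was a ratio of S1pr4 to S1pr1 counts of 0.756, 0.818, 0.686 and 0.667 in RGX-104 and of 0.454, 0.346, 0.405 and 0.521 in DMSO. Its mean was 0.732 ± 0.069 in RGX-104 and 0.432 ± 0.074 in DMSO (SD, n = 4 each). Each RGX-104 library was above each DMSO library. This had to follow, since S1pr4 was higher and S1pr1 lower in every RGX-104 library, and adds no separate evidence. The ratio does not depend on how the libraries were scaled, but DMSO replicate 4, the DMSO library with the most genes detected, had the DMSO ratio nearest to RGX-104.

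**Figure D2:**
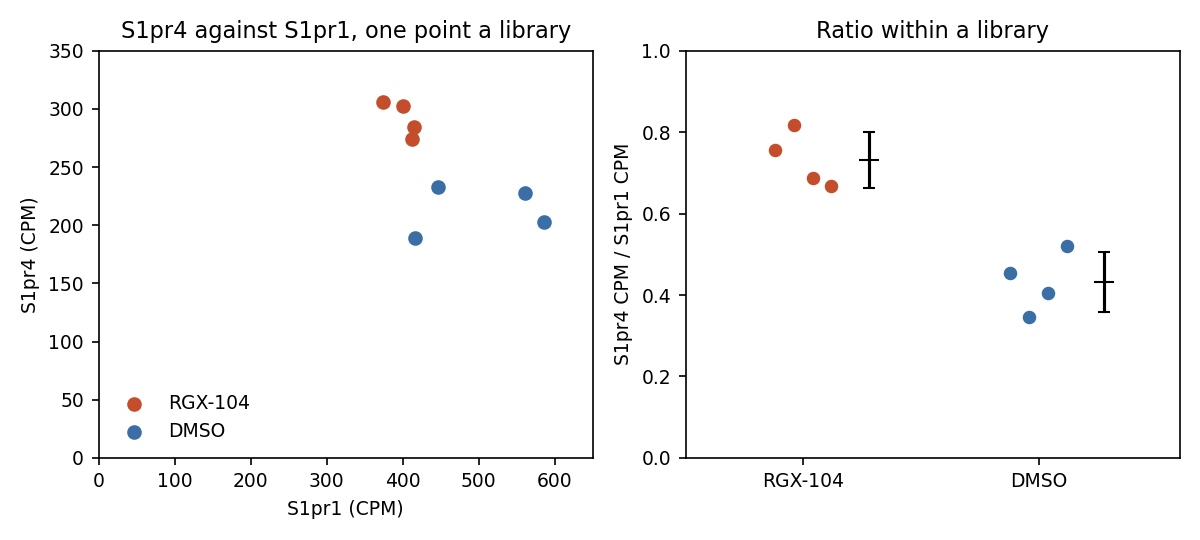
Left, S1pr4 against S1pr1 in CPM, 1 point a library; right, the ratio of S1pr4 to S1pr1 in each library with mean ± SD of 4. RGX-104 libraries lie at ratios of 0.667 to 0.818 and DMSO libraries at 0.346 to 0.521.

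S1pr1 lies on the minus strand of chromosome 3 at 115710433 to 115715072 and S1pr4 on the minus strand of chromosome 10 at 81497747 to 81500132, where it is a gene of 1 exon. The promoter of S1pr4 is shown because this gene had the largest log2 difference of the 9. Windows of 250 bases before and 50 after the start, credited to RefSeq on GRCm38.p6, were matched for 5 of the 9 genes; those of Ccr7, S1pr1, Itgal and Itgb2 were not used here. The window is chr10:81500088-81500387 on the minus strand, written 5′ to 3′, with capitals for the letters CACCC on either strand. This is the box that factors of the KLF family bind, among them KLF2, known as an activator of S1pr1.
S1pr4 promoter: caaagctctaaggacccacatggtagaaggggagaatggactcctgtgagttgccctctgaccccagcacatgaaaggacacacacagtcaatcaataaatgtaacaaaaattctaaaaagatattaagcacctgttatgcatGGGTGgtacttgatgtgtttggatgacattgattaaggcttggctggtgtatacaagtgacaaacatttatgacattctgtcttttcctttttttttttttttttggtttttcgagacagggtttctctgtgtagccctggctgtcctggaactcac
It held 1 such box, and 57.5% of the 32851 promoters in the table held at least 1. The FOXO core GTAAACA, the ETS core GGAAGT and the LXR element, a direct repeat of AGGTCA with a 4-base spacer, searched on both strands, were not among these letters. They occur in 3.65%, 23.8% and 0.0152% of all promoters.

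Genes that make, break down or sense S1P were read from the same fit. Of 24 listed genes, S1pr1 and S1pr4 included, 15 could be tested and 0 were called (DESeq2 and limma-voom called 0). Their median log2 fold change was 0.024. At an edgeR unadjusted p under 0.05, 1 was higher and 2 were lower, where 3.81% of all genes tested were under this p. S1pr4 and S1pr1, given above, are among these, so the count adds no separate evidence for them. The third gene was Sgpp1, an S1P phosphatase, at 54.5, 68.9, 94.0 and 70.2 CPM in RGX-104 and at 98.1, 123, 111 and 127 CPM in DMSO. Its groups did not overlap, which held for 3.56% of all genes tested, and its log2 fold change of -0.69 ± 0.23 did not pass (edgeR unadjusted p = 0.00713, adjusted p = 1.00). Sgpl1, the S1P lyase, averaged 82.6 ± 12.8 CPM in RGX-104 and 64.2 ± 20.9 CPM in DMSO, and Cers4, a ceramide synthase, 18.8 ± 9.27 and 34.6 ± 17.8 CPM. Cd69, whose protein binds S1PR1 and removes it from the surface, was at 26.3, 0, 32.9 and 14.3 CPM in RGX-104 and at 11.2, 1.399, 18.7 and 10.7 CPM in DMSO, with no direction that stands above this spread. S1pr2 averaged 6.03 ± 5.78 and 2.58 ± 5.15 CPM, and S1pr5 had no count.

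The factors known to set these receptors showed no difference that passed. Klf2 averaged 862 ± 56.9 CPM in RGX-104 and 815 ± 61.6 CPM in DMSO (log2 fold change 0.066), and Foxo1, known to act upstream of Klf2 and Ccr7, 256 ± 23.6 and 254 ± 32.8 CPM (0.00080). Of 16 listed transcription factors of traffic 14 were tested and 0 called (DESeq2 and limma-voom called 0). At an edgeR unadjusted p under 0.05, 1 was lower and 0 were higher, where 3.81% of all genes tested were under this p. That gene was Klf6, at 229 ± 44.2 CPM in RGX-104 and 292 ± 38.7 CPM in DMSO, with RGX-104 replicate 6 lowest at 163 CPM. Foxo3 averaged 42.8 ± 1.74 CPM in RGX-104 and 25.99 ± 9.65 CPM in DMSO without overlap, and did not pass (edgeR unadjusted p = 0.0977). Of all genes tested 3.56% had no overlap. Klf13 averaged 822 ± 47.8 and 717 ± 108 CPM.

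Among the integrin genes, the chains of LFA-1 were counted at unequal CPM, with no correction for differences in priming and mapping between genes. Itgal, the αL chain, was at 140.0, 93.1, 139 and 77.9 CPM in RGX-104 and at 109, 83.3, 65.7 and 113 CPM in DMSO. Both groups spanned low and high libraries, and a log2 fold change of 0.26 ± 0.25 had an interval from 0.830-fold to 1.73-fold. Against DMSO replicate 4 alone it was -0.0432. Itgal lies on the plus strand of chromosome 7 at 127296260 to 127335138, with 31 exons.

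Itgb2, the β2 chain that pairs with αL in LFA-1, was at 240.1, 225, 169.8 and 258 CPM in RGX-104 and at 218, 213, 222 and 217 CPM in DMSO. The DMSO libraries lay close together, and the RGX-104 libraries spread to both sides of them. On the log2 scale the difference was 0.021 ± 0.16, with an interval from 0.804-fold to 1.28-fold. The ratio of Itgal to Itgb2 counts was 0.529 ± 0.22 in RGX-104 and 0.427 ± 0.10 in DMSO (SD, n = 4 each). Itgb2 lies on the plus strand of chromosome 10 at 77530252 to 77565708.

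Itga4, the α4 chain, which pairs with β7 or with β1, had the highest mean CPM of the integrin genes of the set. It had 358, 357, 391 and 299 CPM in RGX-104 and 382, 425, 375 and 388 CPM in DMSO. RGX-104 replicate 7 lay within the DMSO range and the other 3 RGX-104 libraries below it. A log2 fold change of -0.18 ± 0.13 resulted, with an interval from 0.732-fold to 1.07-fold, and its sign was kept in all 17 alternatives. Itga4 lies on the plus strand of chromosome 2 at 79255426 to 79333123, and its last exon overlaps Cerkl on the opposite strand, which had at most 3.02 CPM in any library.

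Itgb7, the β7 chain of the gut homing integrin, was at 95.8, 129, 159 and 132 CPM in RGX-104 and at 140.3, 143, 57.9 and 132 CPM in DMSO. DMSO replicate 3 was far below the other DMSO libraries. Its log2 fold change was 0.11 ± 0.26 with that library and -0.13 without it, and the interval with it ran from 0.740-fold to 1.57-fold. The ratio of Itga4 to Itgb7 counts was 2.27 to 3.74 in RGX-104, 2.72 to 2.98 in DMSO replicates 1, 2 and 4 and 6.48 in DMSO replicate 3. Itgb7 lies on the minus strand of chromosome 15 at 102215995 to 102231944.

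Itgb1, the other partner of α4 and the chain that makes a receptor for VCAM-1, was at 56.1, 84.1, 62.4 and 58.8 CPM in RGX-104 and at 33.2, 36.6, 78.9 and 39.9 CPM in DMSO. Here DMSO replicate 3 was the highest DMSO library, and the other 3 lay below all RGX-104 libraries. The difference did not pass (log2 fold change 0.46 ± 0.33, edgeR unadjusted p = 0.179). Stromal and endothelial markers in DMSO replicate 3 summed to 12.8 CPM and to 0 in the other DMSO libraries. Of this list only Col1a1 and Epcam had counts in DMSO, so no endothelial gene of it did. In DMSO replicate 3 the CPM of 1 apparent molecule was 4.72, so this sum lay near the floor. The part of these markers in the Itgb1 value was not tested.

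The promoters of both chains of α4β7 are shown because their products pair into 1 receptor, with the same capitals as before. They are chr2:79255176-79255475 on the plus strand and chr15:102231886-102232185 on the minus strand.
Itga4 promoter: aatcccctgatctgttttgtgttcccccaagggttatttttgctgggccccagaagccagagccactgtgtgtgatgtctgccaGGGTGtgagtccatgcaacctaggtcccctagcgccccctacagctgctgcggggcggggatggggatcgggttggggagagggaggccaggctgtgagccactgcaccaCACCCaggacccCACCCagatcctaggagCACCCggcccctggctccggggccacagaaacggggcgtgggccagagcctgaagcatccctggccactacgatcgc
Itgb7 promoter: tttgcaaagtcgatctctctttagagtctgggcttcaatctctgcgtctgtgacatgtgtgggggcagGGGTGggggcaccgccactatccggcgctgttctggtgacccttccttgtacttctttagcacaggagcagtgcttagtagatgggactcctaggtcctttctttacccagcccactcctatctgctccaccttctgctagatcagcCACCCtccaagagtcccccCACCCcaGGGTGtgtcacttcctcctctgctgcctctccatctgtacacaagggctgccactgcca
Each window held 4 CACCC boxes, a number reached or passed in 3.10% of all promoters. The G and C content was 64.3% and 56.3%, and 41.0% in the S1pr4 window. Ccr9 and Cxcr4 had 1 box each. The ETS core was found once in the Itgb7 window, apart from the CACCC boxes, and in none of the other 4, and the FOXO core and the LXR repeat in none of the 5. Only exact letters were searched, found in 3.65% (FOXO) and 0.0152% (LXR) of all promoters. Their absence from 5 windows therefore says little about these genes.

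**Figure D3:**
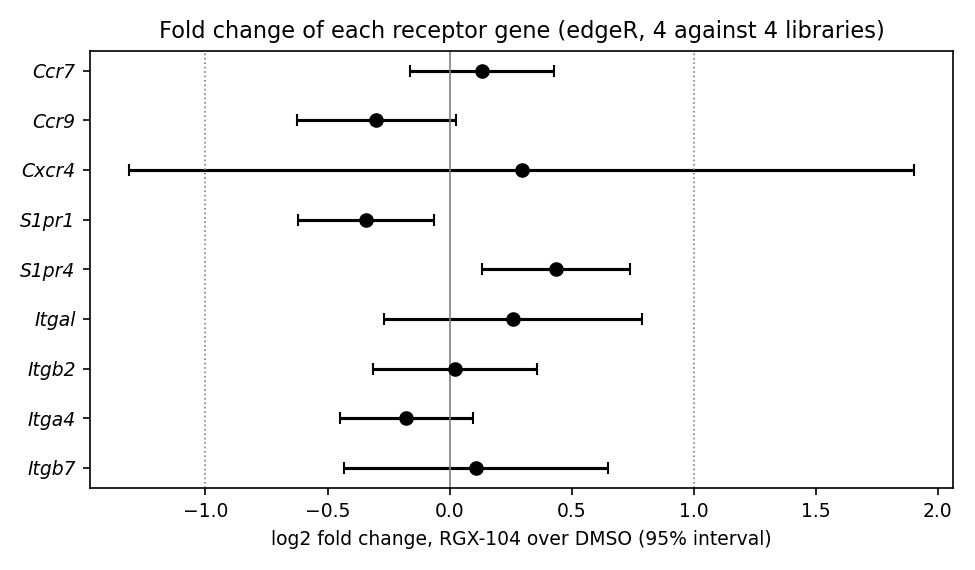
Log2 fold change of each receptor gene, RGX-104 over DMSO (horizontal axis), with its 95% interval from the edgeR fit on 4 against 4 libraries; dotted lines mark a 2-fold change. The intervals of S1pr4 (1.10-fold to 1.67-fold) and S1pr1 (0.650-fold to 0.956-fold) leave out 0, no gene passed after adjustment, and the interval of Cxcr4 alone reaches past both dotted lines.

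Of 26 listed integrin chains, Itgal, Itgb2, Itga4 and Itgb7 included, 18 had a count and 12 were tested. Among these, 0 were called and 0 had an edgeR unadjusted p under 0.05 (DESeq2 and limma-voom called 0). The median log2 fold change was 0.089. Itga6, the laminin receptor chain of naive T cells, averaged 252 ± 57.6 CPM in RGX-104 and 237 ± 27.3 CPM in DMSO, and Itgb3 42.4 ± 6.45 and 35.99 ± 9.27 CPM. Itgae, the chain that holds T cells to epithelium, was low, at 5.82 ± 4.75 and 8.94 ± 3.79 CPM.

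The proteins that switch integrins on were tested in 26 of 33 listed genes, with 0 called (DESeq2 and limma-voom called 0). Their median log2 fold change was -0.074. At an edgeR unadjusted p under 0.05, 1 was higher and 1 lower, where 3.81% of all genes tested were under this p. Ptk2b, the adhesion kinase PYK2, was at 78.2, 100.2, 93.3 and 80.8 CPM in RGX-104 and at 149.9, 140.5, 100.4 and 143 CPM in DMSO. These groups were apart by the gap between 100.2 and 100.4 CPM, and 3.56% of all genes tested had no overlap. The log2 fold change of Ptk2b, -0.62 ± 0.21, did not pass (edgeR unadjusted p = 0.00834). Rapgef1, an exchange factor for the GTPase RAP1, averaged 158 ± 27.9 CPM in RGX-104 and 105 ± 38.5 CPM in DMSO with overlap, and Sipa1, which turns RAP1 off, 161 ± 24.1 and 121 ± 18.8 CPM. Talin and kindlin-3, which bind the integrin β tail, showed smaller differences, with Tln1 at 575 ± 56.8 and 613 ± 40.9 CPM and Fermt3 at 226 ± 39.8 and 238 ± 7.37 CPM.

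Signalling below the chemokine and S1P receptors was tested in 34 of 42 listed genes, with 0 called (DESeq2 and limma-voom called 0). Their median log2 fold change was 0.048. At an edgeR unadjusted p under 0.05, 1 was higher and 0 were lower, where 3.81% of all genes tested were under this p. The 1 gene was Coro1a, an actin regulator that naive T cells need to leave the thymus, at 1190, 1256, 1131 and 1089 CPM in RGX-104 and 876, 928, 877 and 1178 CPM in DMSO. DMSO replicate 4 lay among the RGX-104 libraries. Gnai2, the G protein α chain through which these receptors signal, averaged 1216 ± 92.4 and 1120 ± 188 CPM and Rac2, a GTPase of the cytoskeleton, 846 ± 88.2 and 867 ± 92.9 CPM. Wipf1 averaged 237 ± 35.0 CPM in RGX-104 and 181 ± 37.0 CPM in DMSO, and Gna13 300.3 ± 37.7 and 351 ± 68.3 CPM.

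Of 27 listed adhesion partners and ligands 14 were tested and 0 called (DESeq2 and limma-voom called 0). At an edgeR unadjusted p under 0.05, 1 was higher and 0 were lower, where 3.81% of all genes tested were under this p. That gene was Spn, which encodes the sialomucin CD43, at 469.6 ± 57.2 CPM in RGX-104 and 379 ± 26.3 CPM in DMSO, with RGX-104 replicate 8 inside the DMSO range. Icam1, the ligand of LFA-1, averaged 60.0 ± 27.3 and 40.8 ± 9.43 CPM, and Jaml, an adhesion molecule of the junction family, 207 ± 36.9 and 231 ± 41.6 CPM.

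Because 3' end sequencing gives about 1 read site per transcript, CPM can be set side by side between genes without a length, apart from differences in priming and mapping. In RGX-104 the order of mean CPM was Ccr7 (839), S1pr1 (400.1), Itga4 (351), S1pr4 (292), Ccr9 (257), Itgb2 (223), Itgb7 (129), Itgal (112) and Cxcr4 (19.99). In DMSO it was Ccr7 (757), S1pr1 (502), Itga4 (393), Ccr9 (313), Itgb2 (217), S1pr4 (213), Itgb7 (118), Itgal (92.7) and Cxcr4 (16.1). In RGX-104 the ranges of neighbours from S1pr1 down to Itgb2 overlapped, as did those of Itgb7 and Itgal. Within a library, S1pr1 was above Itga4 and Itga4 above S1pr4 in all 4, and the other overlapping pairs kept their order in 3. In DMSO the overlapping neighbours were Ccr7 and S1pr1, S1pr1 and Itga4, Itgb2 and S1pr4, and Itgb7 and Itgal. There Ccr7 was above S1pr1 and S1pr1 above Itga4 in all 4 libraries, Itgb7 above Itgal in 3 and Itgb2 above S1pr4 in 2. S1pr4 stood 4th in RGX-104 and 6th in DMSO, and every other place but those of Ccr9 and Itgb2 was the same.

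The spread between libraries of 1 group can be set beside the counting error of the apparent molecules. Over the 8 libraries Ccr7 came to 108 to 288 apparent molecules and Itgal to 13.9 to 43.5, for which counting alone gives a coefficient of variation of 6.85% and 19.1%. The observed coefficients were 12.05% in RGX-104 and 19.7% in DMSO for Ccr7, and 28.2% and 24.1% for Itgal. Itgb2 in DMSO varied by 1.58%, less than the 13.1% that its molecules give, so this narrow spread is no measure of its precision. S1pr4 varied by 5.08% in RGX-104 and 9.66% in DMSO, where its molecules give 12.1%. S1pr1 varied by 4.64% in RGX-104 and 16.6% in DMSO, where its molecules give 9.27%. For S1pr4 and S1pr1, too, the spreads below the counting error are no measure of precision.

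The patterns most like those of the leading members were found by the root mean square difference of centred log2 CPM over the 8 libraries, among 3543 other tested genes with a mean of 50 CPM or more. For Ccr7 they were Rps27a (0.090) and Il16 (0.091), where the median gene was at 0.38 and Ccr7's own deviation from its mean was 0.24. For S1pr1 they were Serbp1 (0.097) and Atp1b3 (0.098), with 0.37 for the median gene and 0.22 for S1pr1 itself.

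**Figure D4:**
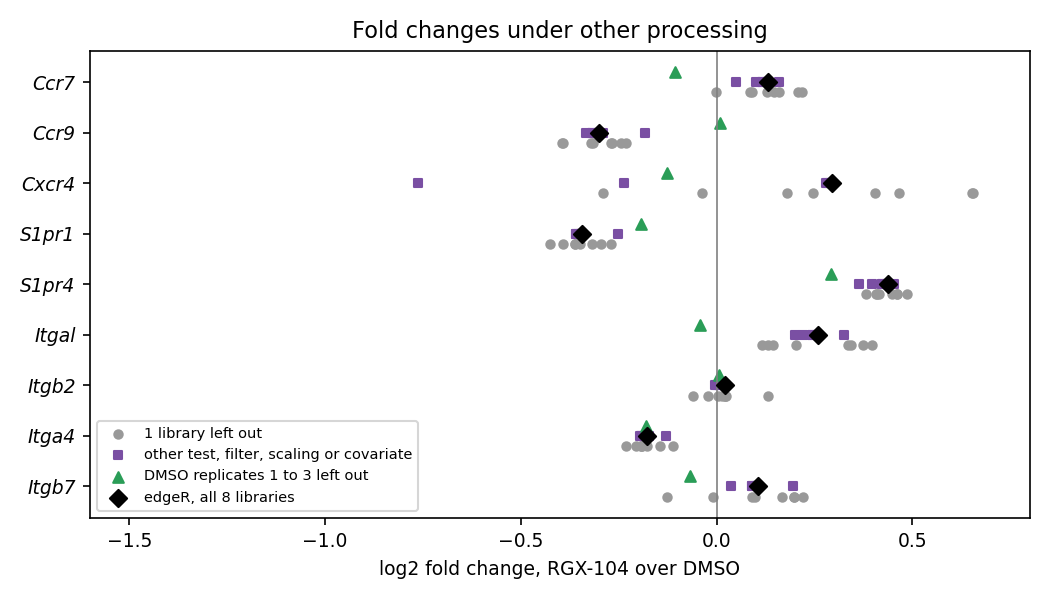
Log2 fold change of each receptor gene, RGX-104 over DMSO (horizontal axis), in the edgeR fit on all 8 libraries (diamond), with 1 library left out (circles), with another test, filter, scaling or covariate (squares) and with DMSO replicates 1 to 3 left out (triangles). S1pr1, S1pr4 and Itga4 kept their sign at every point, and Cxcr4 spread from -0.76 to 0.66.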

How the data were processed

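Libraries of naive mouse CD8+ T cells were made with a QuantSeq kit, which reads near the 3' end of polyadenylated RNA, per the labels' protocols. The deposited values are raw counts, whole numbers per gene symbol in 1 column per library, per the file headers. The submitters' processing notes name STAR 2.7.8a, R 4.1.0, DESeq2 1.4 and GRCm38, with no role for any. How reads were assigned to genes, whether strand was used and whether molecular identifiers were counted is not given in the sources used here, so overlapping genes may share reads.

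The members and lists were chosen with earlier results of these data known. The quasi-likelihood test of edgeR 4.0.16 (R 4.3.3; TMM, filterByExpr with a minimum count of 10, group as the only term) was run on all 8 libraries and adjusted by Benjamini-Hochberg over 10037 genes, with a call at an adjusted p under 0.05. The SE is the size of the log2 fold change over the square root of F, and intervals are 95%. DESeq2 1.42.0 and limma 3.58.1 were alternatives. The fit was tested on simulated data. Total counts were 16196217 to 28287445 per library. Apparent molecules are the number that, under Poisson sampling, gives a library's zeros among genes averaging 2 to 20 CPM elsewhere. Coordinates and exons come from GENCODE M21 (GRCm38). Genes beyond the 9 members were named by a rule: a set given always, and per list up to 4 that passed or else up to 3 with the smallest p at 20 CPM or more. Cd28 and Cd2 were named after their values were seen. Of the set given always, 1 gene is not reported here.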

Additional observations from a re-analysis of the deposited data

Results flagged for a closer look

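Of 123 groups of 4 libraries, 9 had 1 library set apart from its group. About 6.2 would be flagged by chance if the groups were independent and normally spread. They are not, since some share a gene and a group with a count in only 1 library is always flagged. Itgb7 in DMSO replicate 3 was at 57.9 CPM, where the rest of DMSO had 132 to 143 CPM. In the same library the ratio of Itga4 to Itgb7 was 6.48, where the rest had 2.72 to 2.98. Itgb1 was at 78.9 CPM there, where the rest had 33.2 to 39.9 CPM, so that of the β chains that pair with α4 one was low and the other high in DMSO replicate 3. S1pr2 was counted at 10.3 CPM in this library alone of the DMSO group. The stromal and endothelial markers, through Col1a1 and Epcam alone, summed to 12.8 CPM in it and to 0 elsewhere in DMSO. Both values lay near the floor, since 1 apparent molecule came to 4.72 CPM in DMSO replicate 3. Cxcr3 had 1.59 CPM in RGX-104 replicate 6 as the only RGX-104 library with a count. In RGX-104 replicate 7 the B cell markers summed to 219 CPM, where the rest of RGX-104 had 128 to 143 CPM. The dendritic cell markers summed to 36.5 CPM there, where the rest had 72.6 to 76.7 CPM. Most of the dendritic sum was Cst3, which averaged 62.7 CPM in RGX-104. Neutrophil markers summed to 34.7 CPM in DMSO replicate 4 and were at 0 in DMSO replicates 1, 2 and 3.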

How the results depend on the processing

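No receptor gene was called in any of 17 alternatives (16 for Cxcr4), and the signs of S1pr1, S1pr4 and Itga4 were kept in all of them. The count of called genes was 33 with DESeq2 (20 higher and 13 lower) and 7 in the fit that adjusts for detected genes, against 11 in the main setting; it ran from 8 to 14 with 1 library left out. With DMSO replicates 1 to 3 left out the log2 fold changes turned to -0.11 (Ccr7), 0.0101 (Ccr9), -0.13 (Cxcr4), -0.0432 (Itgal) and -0.0679 (Itgb7); the lone DMSO library is assumed to vary like RGX-104, and the median of all genes was 0.13 in that fit. Cxcr4 was at -0.24 with limma-voom and at -0.76 when detected genes were adjusted for. Itgb2 was at -0.00321 on counts reduced to apparent molecules, where Cxcr4 was too low to test. With 1 library left out the log2 fold changes ran from -0.00134 to 0.22 (Ccr7), -0.29 to 0.66 (Cxcr4), -0.0595 to 0.13 (Itgb2) and -0.13 to 0.22 (Itgb7), and Cxcr4 was lowest without RGX-104 replicate 6. The cause of these turns was not tested. No paired analysis was possible because library numbers are unique across the groups. A 2-fold change of Cxcr4 was not detectable in these libraries.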
